A study of Mus musculus with 2 samples.

Results

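The L1 and NCAM families are immunoglobulin-type adhesion molecules of the cell surface, and 7 of their genes are described here in mouse cardiomyocytes (MCMs) in which *Ppp2r5d* was knocked down. The genes were *Nrcam*, *L1cam*, *Chl1* and *Nfasc* of the L1 family, *Ncam1* and *Ncam2*, and the contactin *Cntn1*. They were chosen from family knowledge around *Nrcam*, and *Nrcam* itself was chosen by its fall between these same arrays, so its fold change is a description and supports nothing by itself. All non-control probes carrying one of the 7 names were taken, which gave 25 of 56604 probes and 7 of 37073 gene names.

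One Agilent array measured MCMs transfected with a negative control siRNA (siRNA-NC), and 1 array measured MCMs transfected with an siRNA against *Ppp2r5d* (siRNA-*Ppp2r5d*), which encodes B56δ, a regulatory subunit of protein phosphatase 2A. No genotype or strain is given for the cells. Both groups were transfected with Lipofectamine RNAiMAX, moved to glucose-free medium 48 hours after transfection and collected at 64 hours, so the control cells had also been without glucose. The MCMs were purchased cells, used after many passages and grown in DMEM with low serum. The arrays asked which transcripts differ after the knockdown. With 1 array per condition no test across samples was possible, and the differences below compare these 2 arrays. The errors are those of the scanner software for each spot and do not cover the variation between cultures.

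L1-type molecules span the membrane, bind each other and other surface proteins through their immunoglobulin and fibronectin domains, and hold on to the spectrin skeleton through ankyrins. NCAM proteins adhere to themselves and to the FGF receptor, and are made in forms that either cross the membrane or are held by a lipid anchor, and may carry polysialic acid. Contactins are lipid-anchored partners of L1-type proteins. The families are best known for axon growth and for the nodes of Ranvier, and *Ncam1* is also made by muscle cells.

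The targeted *Ppp2r5d* read 4701 in siRNA-NC and 676 in siRNA-*Ppp2r5d* cells, which was 6.08-fold lower after scaling and fitted the labels. Scaling set each array relative to the 75th percentile of its probe signals, 593 and 519 intensity units. The lowest signals that the scanner software called well above background were 14.9 and 13.5. Probes below that call mostly sat at a floor, with medians of 3.06 and 2.76. Among 292 probes printed on several spots, the median SD between spots was 0.036 on the log2 scale. On one array or both, 13 of 17 cardiomyocyte markers passed the call, while *Actn2*, *Myl2*, *Myl7* and *Pln* did not. Several that passed read low in siRNA-NC cells at their brightest probe, with *Myl3* at 40.4, *Myh7* at 48.1 and *Tnni3* at 54.1. *Myh6* and *Ryr2* passed on the siRNA-*Ppp2r5d* array alone. Others were brighter, such as *Actc1* at 6443. The cardiomyocyte markers also differed between the arrays: of 11 measured in both conditions, 8 were above 0 and 3 below, with a median log2 fold change of 0.23. *Csrp3*, a Z-disc protein, read 37.7 and 126 at its brightest probe, a log2 fold change of 1.93. Of 10 fibroblast markers, 7 passed the call, while *Thy1*, *Tcf21* and *Fap* did not. The collagen *Col1a1* read 72466 and 67290 at its brightest probe. The 7 had a median log2 fold change of -0.05, with 3 above 0 and 4 below, and *Lum* had 1.08. Of 8 smooth muscle and pericyte markers, 7 passed the call and *Rgs5* did not. *Acta2* read 133436 and 115480 at its brightest probe. These 7 had a median log2 fold change of 0.12, with 4 above 0 and 3 below, and *Cnn1* had 2.41. The part of the marker differences in the results below was not tested. Cell types that differ in number and cells that differ in RNA content cannot be told apart in such bulk RNA.

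Of the 7 genes, 4 were measured well above background on both arrays. *Nrcam* was 9.32-fold lower in siRNA-*Ppp2r5d* cells, *L1cam* and *Nfasc* were 1.42-fold and 1.46-fold higher at low signals, and the bright *Ncam1* differed by a log2 value of -0.17. *Chl1*, *Ncam2* and *Cntn1* were not well above background on either array and have no fold change. By probe, 8 of the 25 were well above background on both arrays, 0 on 1 array alone and 17 on neither. No member spot was saturated or marked as an outlier, and the local background beside the spots lay between 22 and 29 on both arrays.

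**Figure D1:**
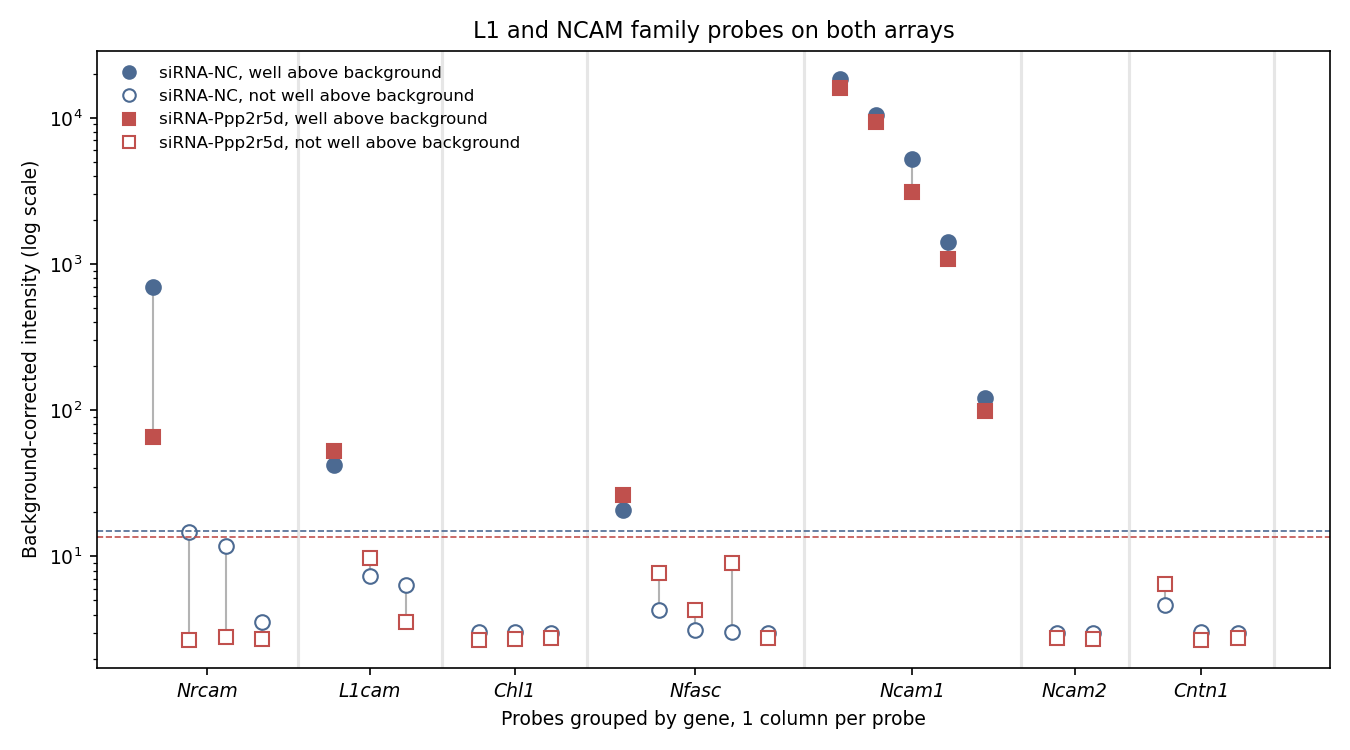
Background-corrected intensity (log scale) of each of the 25 probes on the siRNA-NC array (circles) and the siRNA-Ppp2r5d array (squares), before scaling between arrays, with a grey line joining both values of a probe. Filled symbols are well above background, and the dashed lines mark the lowest such signal of each array, 14.9 and 13.5. The *Nrcam* probe that drops from 696 to 65.3 is filled at both ends, all 5 *Ncam1* probes are filled, and no probe of *Chl1*, *Ncam2* or *Cntn1* is.

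*Nrcam* encodes an ankyrin-binding adhesion molecule that joins neuropilin-2 in semaphorin receptors. Its 4 probes lie on the plus strand of chromosome 12 (mm9 coordinates of the array design), and the fold change rests on the most 3′ of them. The first 30 bases of each are shown in order along the gene, because the probes stand for different transcripts and only the last was bright.

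Nrcam, chr12:45645852-45648247, predicted RefSeq transcript: aagcagcctatttctttgaaggtgatttca
Nrcam, chr12:45647634-45647693, cDNA clone: cctctactgtaaatctgtattcagagcata
Nrcam, chr12:45678286-45678345, cDNA clone: gtacacacatagacatatgtgtctgtatat
Nrcam, chr12:45699758-45699817, RefSeq mRNA: gcatacgtttttgttcagagtggggttttt

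The first probe spans 2396 bases of genome and so crosses an intron, whereas each of the others is a 60-base unbroken match. The last probe starts at position 4496 of its RefSeq mRNA. Whether it lies in coding sequence or in a UTR was not analysed here. Against all probes of other gene names, the longest run of bases that any *Nrcam* probe shared was 15.

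The last *Nrcam* probe read 696 ± 69.6 (scanner error) in siRNA-NC cells and 65.3 ± 7.09 after the knockdown. Both values were well above background, and the errors did not meet. The scaled log2 fold change was -3.22 ± 0.21 (SE from the scanner errors). This was the lowest value among 20350 genes with that call in both conditions, and the next gene stood at -2.78. Among 3182 probes within 0.5 log2 units of its control brightness, 29 (0.911%) were at least 2-fold lower. Of these, 1, the *Nrcam* probe itself, was at least 8-fold lower. As *Nrcam* was chosen for this fall, its rank and its place among these probes follow from that choice and support nothing further.

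The other 3 *Nrcam* probes were never well above background. They read 11.8, 14.8 and 3.57 on the siRNA-NC array, the middle one close to the 14.9 that the call requires. On the siRNA-*Ppp2r5d* array they read 2.83, 2.69 and 2.73, at the floor of that array. As the knockdown values sat at a floor, these probes give no measured size of a difference and are not used as support for the bright probe. Averaging these probes in, with no filter on dim probes, brings the *Nrcam* log2 fold change to -1.89. A weaker call of the software, a signal positive and significantly above the local background, was given to all 3 on the siRNA-NC array and to none of them on the other. Of 22858 probes not well above background on either array, 10.9% had that pattern and 9.21% had the reverse, so it is not rare among dim probes.

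The measured genes next to *Nrcam* did not show such a fall. Of its near protein-coding neighbours in the RefSeq table (GRCm38.p6, used for gene order only), *Pnpla8* had a log2 fold change of 0.19, *Dnajb9* of 0.15 and *Lrrn3* of 0.46. *Stxbp6* and *Nova1* were not well above background. Probes of other names that lie inside the intervals spanned by the probes of *Nrcam*, *Ncam1* and *Cntn1* numbered 7, and all 7 were dim on both arrays.

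**Figure D2:**
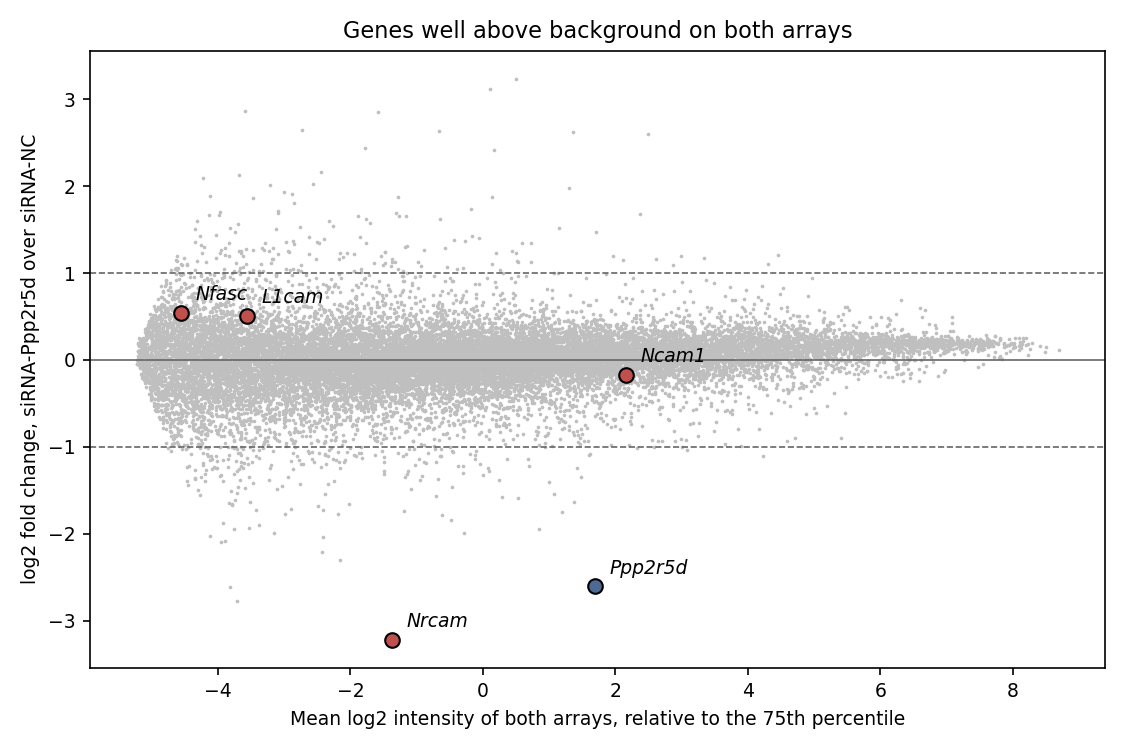
Each grey point is 1 of 20350 genes measured well above background on both arrays, with its mean log2 intensity relative to the 75th percentile on the x axis and its log2 fold change (siRNA-Ppp2r5d over siRNA-NC) on the y axis. Dashed lines mark a 2-fold difference. *Nrcam* at -3.22 is the lowest point, below the targeted *Ppp2r5d* at -2.60, while *L1cam* (0.51), *Nfasc* (0.54) and *Ncam1* (-0.17) lie between the dashed lines.

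At a threshold of 2-fold, 1 of the 7 genes was lower and 0 were higher. For comparison, the array held 21701 genes with that call in either condition, and of them 316 (1.46%) were lower by 2-fold or more and 233 (1.07%) were higher by as much. As *Nrcam* was picked from this contrast, nothing is read from its count. The 4 measured members had a median log2 fold change of 0.17, with 2 above 0 and 2 below, beside a median of 0.026 over all measured genes. The median changes sign when the arrays are scaled on their spike-in probes instead (-0.011).

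*L1cam*, the founding L1 molecule, has 3 probes on the minus strand of the X chromosome. The probe at chrX:71099595-71099654 read 41.8 in siRNA-NC cells and 52.2 after the knockdown. Scaled, this was a log2 fold change of 0.51 ± 0.24. The probe at chrX:71100374-71100433 read 7.38 and 9.75, and that at chrX:71102607-71102666 read 6.33 and 3.56, all below the call of well above background. The brightest probe was therefore higher in the knockdown. No direction is read from the dim ones, whose scaled log2 differences of 0.59 and -0.64 had scanner SE of 0.75 and 1.32. Among 3573 probes of like brightness, differences ran from -0.79 at the 5th percentile to 0.63 at the 95th, so the *L1cam* value lay inside the range of its peers.

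*Nfasc* encodes neurofascin, the ankyrin-binding L1 molecule of axon initial segments and nodes. Of its 5 probes on the minus strand of chromosome 1, only that at chr1:134502161-134504972 was well above background. This probe spans 2812 bases of genome and so crosses an intron. It read 20.7 in siRNA-NC cells and 26.5 after the knockdown, and the scaled log2 fold change was 0.54 ± 0.33. The difference was larger than its scanner error. Its 2482 peers of like brightness ran from -0.46 to 0.83 between the same percentiles, so the *Nfasc* value also lay inside the range of its peers.

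The other 4 *Nfasc* probes were not well above background on either array. From the 3′ end, they read 3.14, 4.29, 3.05 and 3.01 on the siRNA-NC array. On the siRNA-*Ppp2r5d* array, in the same order, they read 4.28, 7.71, 8.97 and 2.77. The first 3 read higher in the knockdown, with scaled log2 differences of 0.64, 1.04 and 1.75. Their SE from the scanner errors were 1.69, 1.16 and 1.53, so no direction is read from these dim probes. The last stayed at the floor of each array. The third gained the weaker call of a significant positive signal in the knockdown.

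Members of one family can resemble each other in sequence, so all probes of different members were aligned without gaps. The closest pair was a probe of *L1cam* and a probe of *Nfasc*, and the aligned stretches are shown with identical bases in capitals.

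L1cam, within chrX:71100374-71100433: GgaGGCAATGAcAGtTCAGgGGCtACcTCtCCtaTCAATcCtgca
Nfasc, within chr1:134467012-134467071: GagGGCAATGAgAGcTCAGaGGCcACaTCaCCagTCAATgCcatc

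Of 45 aligned bases 30 were the same (66.7%). Both probes were dim on both arrays, and neither entered a fold change. The next most similar pair of members, *Chl1* and *Ncam1*, shared 52.0% of aligned bases.

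*Chl1*, the close homologue of *L1cam*, had 3 probes on chromosome 6 with signals from 3.01 to 3.06 on the siRNA-NC array and from 2.69 to 2.76 on the other. These are the floors of the arrays, and none had even the weaker call. *Ncam2*, a second NCAM known from olfactory neurons, had 2 probes on chromosome 16 at 3.01 in siRNA-NC and at 2.74 and 2.75 in siRNA-*Ppp2r5d* cells. *Cntn1*, the contactin that pairs with neurofascin at axon–glia contacts, had 3 probes on chromosome 15. One, at chr15:92170470-92170529 read 4.63 and 6.47, with the weaker call on both arrays, and the others sat at the floor. A level of these 3 genes below what the arrays call well above background was not measurable.

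*Ncam1* was the brightest member, and all 5 of its probes were well above background on both arrays. They lie on the minus strand of chromosome 9 and differ in the transcripts the array design assigns to them. The probes with the lowest fold change and with the fold change nearest to 0 at the 3′ end are shown beside the probe common to all 3 RefSeq mRNAs, as they carry the difference within the gene.

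Ncam1, chr9:49351182-49351241, all 3 RefSeq mRNAs: tggaaggcattgtcaccatcatgggcctga
Ncam1, chr9:49323381-49323440, transcript variant 2 alone: ctgtgtattagtacagtccgtacaccatgt
Ncam1, chr9:49310320-49310379, transcript variant 3 and 1 further mRNA: actttttactgagtgaaacatcaacaccac

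The most 3′ probe, assigned to transcript variant 3 and 1 further RefSeq mRNA, read 18480 in siRNA-NC cells and 15998 after the knockdown, with a scaled log2 fold change of -0.02. A second probe of the same mRNAs, 2904 bases upstream at chr9:49313224-49313283, read 10388 and 9412, a log2 fold change of 0.05. The signs of these small values depend on the scaling, and both are negative on the spike-in scale, which lowers all log2 fold changes by 0.18.

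The probe of transcript variant 2 alone, 13061 bases upstream of the most 3′ probe, read 5234 and 3087. Its log2 fold change was -0.57 ± 0.20. The probe common to all 3 RefSeq mRNAs, 40862 bases upstream, read 1418 and 1078, a log2 fold change of -0.20. The farthest probe, 139693 bases upstream at chr9:49450013-49450072 and assigned to a cDNA clone, read 122 and 98.2, a log2 fold change of -0.12.

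The variant 2 probe was thus the lowest of the 5, and the probe common to all mRNAs lay between it and the variant 3 probes. Within each array, the variant 2 probe gave 0.283 of the signal of the most 3′ probe in siRNA-NC cells and 0.193 in siRNA-*Ppp2r5d* cells, a ratio that does not depend on a constant scaling factor per array. Its log2 fold change was 0.59 ± 0.25 (SE) below the mean of both variant 3 probes. Of 2438 probes as bright as the variant 2 probe, the 5th percentile was -0.31. Over its 5 probes *Ncam1* had an SD of 0.24 and a range of 0.62. Among 195 genes with 5 measured probes the median range was 0.49, and 50 of them (25.6%) had a wider range than *Ncam1*, so probes that differ this much are common on these arrays.

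**Figure D3:**
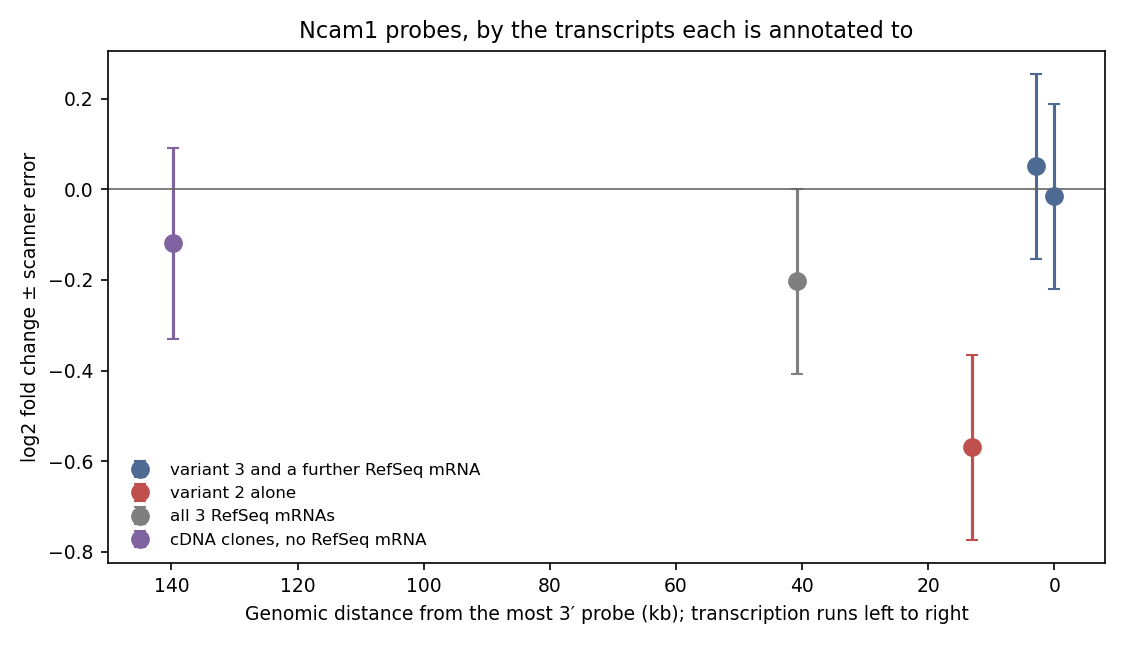
log2 fold change (siRNA-Ppp2r5d over siRNA-NC) of the 5 *Ncam1* probes, with bars for the SE from the scanner errors, against the genomic distance in kb from the most 3′ probe. Colours give the transcripts of each probe. The variant 2 probe at -0.57 is the lowest, the probes of variant 3 lie at -0.02 and 0.05, and the common probe lies at -0.20.

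Other members of the wider L1, contactin and NCAM group were counted next. Of 21 such relatives, 11 were measured on both arrays, and none differed by 2-fold. Their median log2 fold change was -0.18, with 3 above 0 and 8 below. They ran from *Cadm4* at -0.62 to *Cadm3* at 0.52, both synaptic-type adhesion molecules. The *Cadm3* value is a mean over 2 probes, and the brightest *Cadm3* probe read 319 in siRNA-NC and 273 in siRNA-*Ppp2r5d* cells before scaling. *Cntn6*, the only other contactin measured, had -0.18, and *Cntn2* to *Cntn5* were dim.

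Among 30 other immunoglobulin adhesion molecules, 20 were measured on both arrays with a median of 0.01, 10 above 0 and 10 below. They ran from the junctional *F11r* at -0.62 to *Alcam* at 0.75. *Robo4*, an endothelial roundabout receptor, was well above background in siRNA-NC cells at 66.5 and at the floor of 2.76 in siRNA-*Ppp2r5d* cells. Set against the lowest signal called well above background, it was at least 4.32-fold lower. It was the 1 gene of this list past 2-fold, and it did not pass with normexp background correction. *Robo2* had probes called on opposite arrays and was given no value.

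Of 20 cadherins, 10 were measured on both arrays, none of them past 2-fold. Their median was 0.01, and they ran from *Fat4* at -0.37 to *Cdh13* at 0.31. The classical cadherin *Cdh2* read 11172 and 10214, a log2 fold change of 0.01. The 71 other adhesion genes included 26 that were dim on both arrays and could not pass. In the remaining 45, of which 41 were measured in both conditions, 1 was at least 2-fold lower and 0 were higher. The shares over the 21701 genes given above were 1.46% lower and 1.07% higher, so nothing is read from a count of 1.

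Transcripts of the proteins that L1 and NCAM molecules work with were measured more completely. Of 16 cytoskeletal anchors, 14 were measured, with 10 above 0, 4 below and a median of 0.05. *Ank2* and *Ank3*, ankyrins that bind the L1 tail, had log2 fold changes of 0.15 and 0.0069. The anchors ran from the spectrin *Sptbn4* at -0.36 to *Dlg3* at 0.28.

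Of 34 receptors and ligands, 29 were measured, with 14 above 0, 15 below and a median of -0.04. The extremes were the semaphorin *Sema3b* at -0.79 and *Egfr* at 0.68. *Sema3f*, the ligand whose receptor holds neuropilin-2 and *Nrcam*, had -0.79, its brightest probe reading 2196 and 1239. *Nrp2*, that neuropilin, had 0.17, with 40995 and 37767. *Fgfr1*, which NCAM binds, had 0.49.

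Of 18 enzymes that modify or cut these molecules, 13 were measured, with 8 above 0, 5 below and a median of 0.0070. They ran from *B3gat1*, which makes the HNK-1 sugar carried by these proteins, at -0.53 to the polysialyltransferase *St8sia2* at 0.50. The other polysialyltransferase, *St8sia4*, was dim. The sheddase *Adam10* had -0.13, and *Bace1* had -0.36. The 68 partners included 9 that were dim on both arrays and could not pass. In the remaining 59, with 56 measured in both conditions and 3 given a bound, none passed 2-fold in either direction. By sign, 32 measured partners were above 0 and 24 below.

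**Figure D4:**
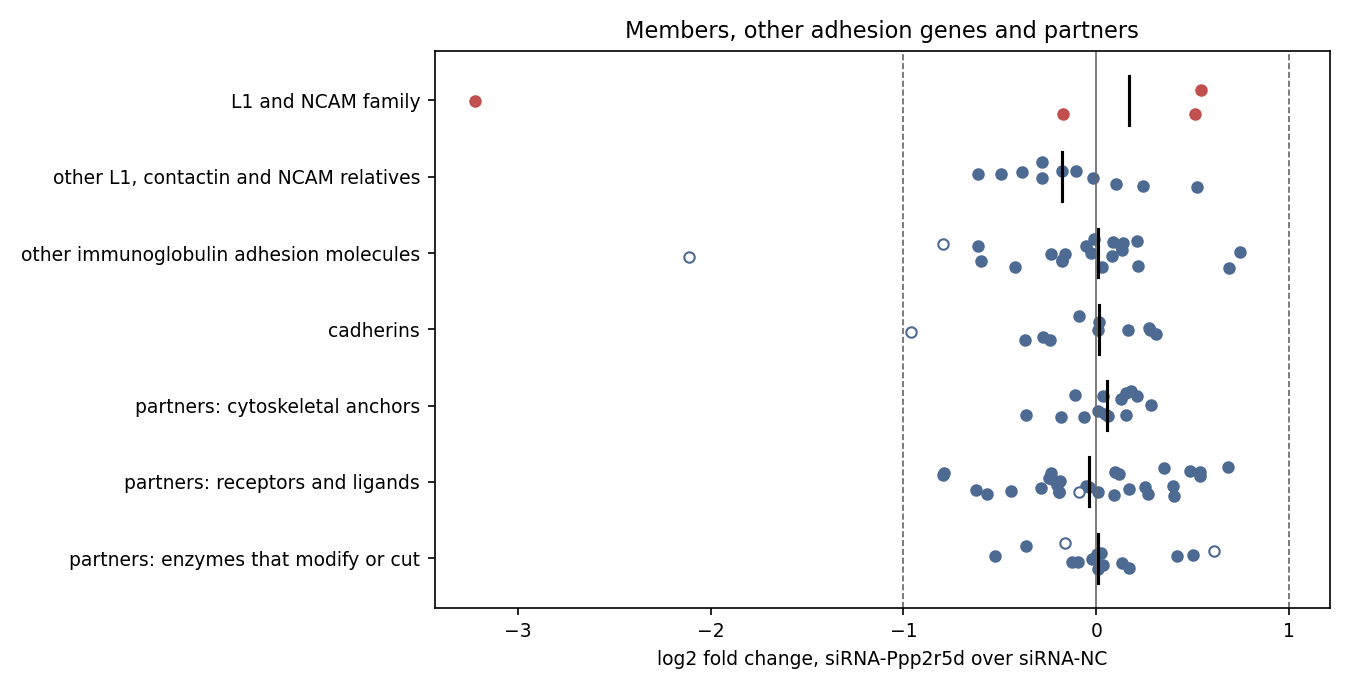
log2 fold change (siRNA-Ppp2r5d over siRNA-NC) of each gene of the L1 and NCAM family (red) and of the lists of other adhesion genes and partners (blue). Filled points were measured on both arrays, open points are lower limits of the difference for genes called on 1 array, black bars are medians of the filled points, and dashed lines mark 2-fold. *Nrcam* and *Robo4* are the points beyond the dashed lines.

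Because the members are typical of nerve and glia, the markers of those cells are given beside them. Of 8 Schwann cell and glia markers, 6 were well above background. Their summed brightest signals were 540 in siRNA-NC cells and 372 after the knockdown, a scaled log2 change of -0.34. *Mbp*, a myelin protein, read 66.5 and 29.1 at its brightest probe and was just past 2-fold lower, *Sox10* had a log2 fold change of 0.34, and *S100b* and *Foxd3* were not well above background. Of 9 neuron markers, 7 were well above background and none differed by 2-fold. Their sum was 9145 and 10151, a scaled log2 change of 0.34, of which *Stmn2* alone made up 6028 and 7357. The median of the measured neuron markers was 0.05, *Nefm* had -0.70, and the defining neuronal marker *Rbfox3* was not well above background. The part of these cells in the *Nrcam* value was not tested.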

How the data were processed

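Total RNA of 1 siRNA-NC and 1 siRNA-*Ppp2r5d* culture was labelled with Cy3 and hybridised to Agilent SurePrint G3 mouse arrays. The deposited intensity files were made by the authors with Feature Extraction 10.7.1.1 (background subtracted, a floor for dim spots, not normalised between arrays). Probe positions are mm9, per the file headers. The headers put both arrays on 1 slide with 1 scan time. The table of log2 intensity values deposited by the authors matched a quantile normalisation of these signals and served as an alternative.

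Outlier spots were left out, spots of a probe averaged, and log2 signals set relative to the 75th percentile of each array. A gene was the mean over its probes well above background on both arrays. A gene called on 1 array entered with a bound against the lowest signal called well above background. No test was possible, and the fold threshold was 2. The genes named are the 7 members, *Ppp2r5d* and, from each list of adhesion genes and partners, genes past 2-fold and the ends of the range. Any other gene was picked with its value in view. The members and lists were chosen with earlier results of these data known. Scripts, tested on simulated data, used Python 3.11.15, pandas 2.3.3, NumPy 2.4.6, matplotlib 3.10.9, and limma 3.58.1 in R 4.3.3. The small number of arrays limits the precision.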

Additional observations from a re-analysis of the deposited data

How the results depend on the processing

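The count of 1 member past the threshold was the same under all 11 alternatives, including thresholds of 1.5-fold and 4-fold. That member was *Nrcam*, chosen for its fall in these same arrays, so nothing is read from the count. The alternatives include both a quantile normalisation and the authors' values, which nearly repeat it. The *Nrcam* log2 fold change was -3.40 with the spike-in scaling, -2.40 with normexp background correction (offset of 50) and -1.89 without the filter on dim probes, which averages in its 3 dim probes. The spike-in scaling shifted the median of all genes by -0.18. The members' median was -0.011 with the spike-in scaling and 0.047 with normexp. Over 9 alternatives *L1cam* ran from 0.16 to 0.56, *Nfasc* from 0.25 to 0.81 and *Ncam1* from -0.35 to -0.02, and the *Ncam1* variant 2 probe stayed between 0.54 and 0.59 below the variant 3 probes.

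Of the partners, 5 passed 1.5-fold (*Sema3b*, *Sema3f*, *Egfr*, *Bcan* and, by its bound, *Fut9*), 2 passed 2-fold without the filter (*Tnr* and *Ncan*, both dim) and 1 (*Fgfr3*) with the brightest probe per gene. Of the other adhesion genes, 8 passed 1.5-fold, 3 passed 2-fold without the filter (*Alcam*, *Robo4* and *Cdh1*), 2 with the spike-in scaling (*Robo4* and *Cdh17*) and 0 with normexp. The cause of these changes was not tested. The shares of all genes past 1.5-fold, or past 2-fold under these other settings, were not worked out, so nothing is read from these counts. In the main setting, all measured genes ran from -0.56 at the 5th percentile to 0.49 at the 95th. No paired analysis was possible because each condition has 1 array. Signals under about 14.9 and 13.5 were not called well above background, which limits what can be said of *Chl1*, *Ncam2* and *Cntn1*.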
